A study of Sus scrofa with 19 samples.

Results

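Left ventricular (LV) remodelling after myocardial infarction (RemoLV) was compared with control myocardium (Control) in pigs by RNA-seq. The 6 libraries compared, 3 per group, are those whose count files are titled RemoLV or Control, out of 19 libraries in the series. All pigs were female large whites, and each library came from 1 pig. In RemoLV pigs, a balloon closed the middle of the left anterior descending artery for 90 min before reperfusion, and the posterior wall, remote from the infarct, was sampled at 6 months. Control pigs are called untreated in the study's methods and sham-operated in the sample labels, and their samples came from the anterior wall at 6 months. Wall and group therefore cannot be told apart. The other libraries came from the anterior wall of 3 pigs with an artificial stenosis of the aortic isthmus, sampled at 6 months (Hyper), and of 5 pigs each given 60 mg/m2 of doxorubicin (DOX) or its liposomal form Myocet (MYO) in 3 cycles and sampled at 3 months.

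The naming of the RemoLV and Control libraries is unresolved. A table of expression values that the authors deposited for the whole series has sample columns of its own, and each of them had a Spearman correlation of 1.0 over 14744 genes with exactly 1 count file, the next best file reaching at most 0.992. The table's Control 1, 2 and 3 hold the values of the files RemoLV 1, 2 and 3, and its RemoLV 1, 2 and 3 hold those of the files Control 3, 2 and 1. Of all the table's sample columns, 8 carry another group than their count file. Below, RemoLV and Control mean the library sets so titled in the count files. Under the names of the table every direction between these sets is the opposite: a gene given as higher in RemoLV is then lower in RemoLV.

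Myocardium of the atria and of the ventricles shares most proteins of its contractile apparatus but differs in a small set of isoforms. MYL2 and MYL3 are the ventricular regulatory and essential myosin light chains, MYL4 is the atrial essential light chain, and IRX4 and HEY2 are transcription factors of ventricular myocytes. The tissue remote from an infarct is known for interstitial fibrosis, in which fibroblasts lay down fibrillar collagens under the control of TGF-ß, and for a loss of fatty acid oxidation in its myocytes.

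The defining markers of the ventricle went against the label in the RemoLV libraries. Over the 10 ventricular markers matched, the summed level was 2960 to 3899 CPM (counts scaled to library size with TMM factors) in RemoLV, 19184 to 26198 in Control, 22320 to 25154 in Hyper and 15675 to 19941 in DOX and MYO. IRX4 and IRX5 had at most 3 counts in each RemoLV library. In the atrial list, NPPA, MYL7, KCNA5 and SBK3 had no matched row. The matched list summed to 33150 to 37844 CPM in RemoLV and 33006 to 51176 in Control, so that the groups overlapped. It was at 34160 to 42840 CPM in Hyper and 30020 to 41402 in DOX and MYO. MYH6, which was lower in RemoLV, is part of these sums. Without MYH6, the list summed to 10202 to 13967 CPM in RemoLV against 1062 to 1371 in Control, and no library of the other groups was above 1262. By either naming, these 3 libraries stood apart from the other 16, and they are called by their title only. In such bulk samples, fewer cells of a type and less RNA of that type per cell cannot be told apart.

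Library totals were 9527710 to 16098496 counts in RemoLV and 17458641 to 20370209 in Control. Pearson correlations of log2 CPM were 0.9745 to 0.9801 within RemoLV and 0.888 to 0.926 between RemoLV and Control. Control 1 and Control 3 correlated at 0.9887, whereas Control 2 reached 0.957 with Control 1 and 0.954 with Control 3, and 0.9873 with Hyper 1. TMM factors were 1.10 to 1.18 in RemoLV, 0.965 in Control 2, and 0.735 and 0.696 in Control 1 and 3.

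The promoters of 2 genes that the contrast turned on serve as examples: MYL2, the ventricular light chain, which was low in RemoLV, and SLN, which encodes sarcolipin and was high. Each is the window of 250 bases before the start of the RefSeq gene model on Sscrofa11.1, at chr14:32213849-32214098 and chr9:36242406-36242655, both on the minus strand and written 5′ to 3′. Capitals mark matches to the half-site AGGTGT of T-box factors on either strand.
MYL2: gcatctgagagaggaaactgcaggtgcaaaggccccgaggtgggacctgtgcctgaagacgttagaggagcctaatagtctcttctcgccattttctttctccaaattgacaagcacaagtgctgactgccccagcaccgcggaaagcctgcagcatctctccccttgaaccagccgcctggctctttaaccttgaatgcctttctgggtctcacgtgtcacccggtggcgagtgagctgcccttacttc
SLN: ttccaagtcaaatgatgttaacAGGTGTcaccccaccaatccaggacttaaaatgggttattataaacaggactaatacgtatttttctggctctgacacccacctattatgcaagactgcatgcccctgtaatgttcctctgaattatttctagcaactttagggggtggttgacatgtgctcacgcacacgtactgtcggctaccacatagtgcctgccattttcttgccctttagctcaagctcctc
The half-site was found once in the window of SLN, not in that of MYL2, and in 10.4% of 20664 such windows of all genes. The MEF2 consensus, in 2.33% of windows, and the GATA motif AGATAA, in 8.64%, had no match in these 2 windows on either strand. A match describes the letters only.

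RemoLV and Control differed in 6393 of 13552 genes (47.2%) at an adjusted p of at most 0.05 (the FDR threshold) in edgeR's quasi-likelihood test, adjusted after Benjamini and Hochberg. Of these, 3136 (23.1% of all genes tested) were higher and 3257 (24.0%) lower in RemoLV. A differentially expressed gene (DEG) was in addition at least 2 away from 0 in log2 fold change, and there were 860 (6.35%), of which 559 (4.12%) were higher and 301 (2.22%) lower. The balance of directions depended on the scaling: scaled by library totals without TMM factors, 6178 genes were higher and 1038 lower at the FDR threshold, or 85.6% higher against 49.1%, and 1003 of 1169 DEGs were higher. The median log2 fold change of all genes was 0.02 with TMM factors and 0.52 with library totals. Values below are on the TMM scale, and the median under library totals stands beside each list whose direction it moved. Counts of list members below are to be read beside the shares of all genes, 23.1% higher and 24.0% lower.

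**Figure D1:**
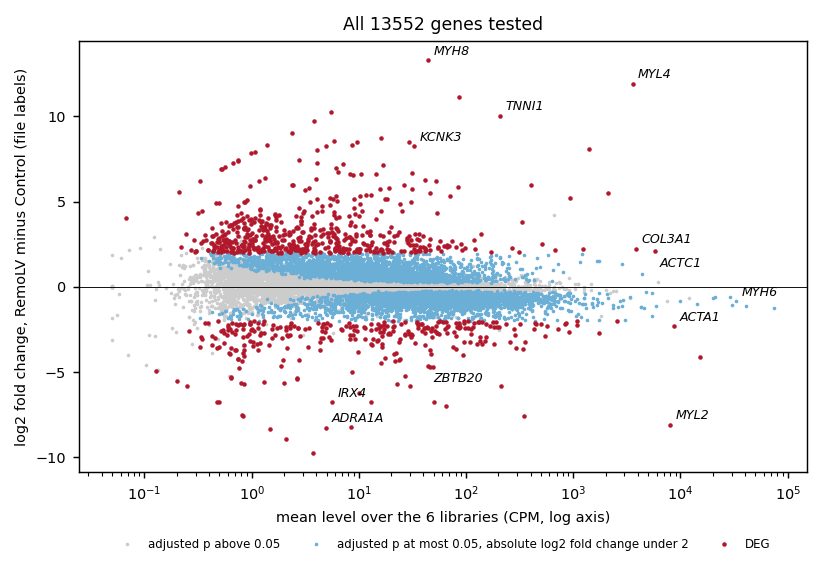
Fitted log2 fold change between the RemoLV and Control libraries (file labels) against the mean level over the 6 libraries in CPM on a log axis, 1 point per gene tested. The points of MYL4, MYH8 and TNNI1 lie above a log2 fold change of 10 and that of MYL2 below -8, and of the 860 DEGs (red points) 559 lie above the zero line.

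Genes of the sarcomere differed in both directions. MYL2 was at 18.6, 115 and 40.0 CPM in RemoLV and at 15896, 13577 and 18077 CPM in Control. All RemoLV libraries lay far below all Control libraries, and the log2 fold change was -8.09 (SE 0.51, adjusted p = 4.57e-09), or -9.09 without RemoLV 2, the highest of its group. MYL4 was at 8130, 7348 and 6029 CPM in RemoLV and at 2.02, 0.594 and 3.10 CPM in Control. The groups did not overlap, as was so for 26.4% of all genes with RemoLV higher and 25.7% with RemoLV lower, and the log2 fold change was 11.90 (SE 0.83, adjusted p = 1.38e-08). TNNI1, the troponin I of slow skeletal and foetal cardiac muscle, was at 289, 456 and 502 CPM against 0.373, 0 and 0.846 CPM, again without overlap. Its log2 fold change was 10.04 (SE 1.0, adjusted p = 8.71e-07), and it moved to 9.37 without Control 2 and 11.20 without Control 3. MYH8, perinatal myosin heavy chain, had no count in any Control library and 221, 34.7 and 8.91 CPM in RemoLV. The RemoLV libraries differed widely among themselves, RemoLV 1 being by far the highest, and all were above Control (adjusted p = 2.94e-05). SLN, an inhibitor of the sarcoplasmic calcium pump, was at 91.9, 43.7 and 50.7 CPM against 0.672, 0.119 and 2.82 CPM. The RemoLV libraries were all above all Control libraries by a log2 fold change of 5.71 (SE 0.60, adjusted p = 1.15e-06), or 5.12 without Control 2 and 7.35 without Control 3.

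Of 14 tested genes of myosin and the thin filament, 3 were higher and 10 lower in RemoLV at the FDR threshold, with a median log2 fold change of -0.91. Scaled by library totals, 3 were higher and 7 lower. The actins moved in opposite directions. Cardiac actin ACTC1 was at 9299, 9809 and 8868 CPM in RemoLV and 2418, 2927 and 1056 CPM in Control, and skeletal actin ACTA1 was at 1837, 3678 and 3334 CPM against 16559, 11276 and 15718 CPM. Neither overlapped between the groups, ACTC1 rising by 2.13 on the log2 scale (SE 0.47, adjusted p = 0.00117, not past the threshold with Control 2 as the only Control library) and ACTA1 having a log2 fold change of -2.30 (SE 0.24, adjusted p = 1.25e-06). MYL3 fell with the ventricular list (log2 fold change -1.20, SE 0.17, adjusted p = 2.89e-05), and so did the troponins TNNC1 (-1.26, SE 0.13, adjusted p = 9.89e-07) and TNNT2 (-0.83, SE 0.14, adjusted p = 1.48e-04), which atrial and ventricular myocytes share. Desmin (DES), the intermediate filament of muscle, rose by 0.75 (SE 0.17, adjusted p = 0.00164). The row named MYH6 was at 22349 to 25986 CPM in RemoLV and 31944 to 49805 CPM in Control (log2 fold change -0.85, SE 0.17, adjusted p = 5.27e-04), but its near-identical neighbour MYH7 had no matched row, and whether reads of MYH7 were counted here was not tested.

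Of 22 transcription factors of the chambers 7 were higher and 8 lower, with a median of -0.07, or 0.36 with library totals. IRX3 was at 1.06, 1.07 and 0.357 CPM in RemoLV and 52.2, 42.8 and 38.6 CPM in Control, a log2 fold change of -5.67 (SE 0.41, adjusted p = 1.98e-08). HEY2, a repressor of atrial genes in the ventricle, was at 3.03, 2.54 and 4.99 CPM against 100.2, 52.8 and 112 CPM, a log2 fold change of -4.68 (SE 0.39, adjusted p = 1.08e-07). All 3 RemoLV libraries were below all Control libraries for both genes. IRX4, at 9.26 to 13.1 CPM in Control, was at least 51.4-fold lower in RemoLV, where no library had more than 3 counts (adjusted p = 9.25e-10). HAND1 had a log2 fold change of -6.22 (SE 0.39, adjusted p = 4.34e-09), and -7.99 without RemoLV 1. In the other direction, SHOX2, a factor of the sinus node and venous myocardium, was at 31.7, 37.3 and 70.8 CPM against 1.42, 2.32 and 0.987 CPM, and all RemoLV libraries were above all Control libraries (log2 fold change 4.86, SE 0.49, adjusted p = 7.80e-07). NR2F2, which maintains atrial identity, rose by 1.52 (SE 0.16, adjusted p = 1.07e-06), TBX5 by 1.73 (SE 0.23, adjusted p = 1.24e-05) and NKX2-5 by 0.85 (SE 0.17, adjusted p = 4.96e-04). Over the marker lists, 12 of 14 atrial genes were higher and 1 lower, and 0 of 10 ventricular genes were higher and 9 lower, with medians of 2.47 and -4.65 beside 0.02 for all genes, and the counts were the same with library totals.

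**Figure D2:**
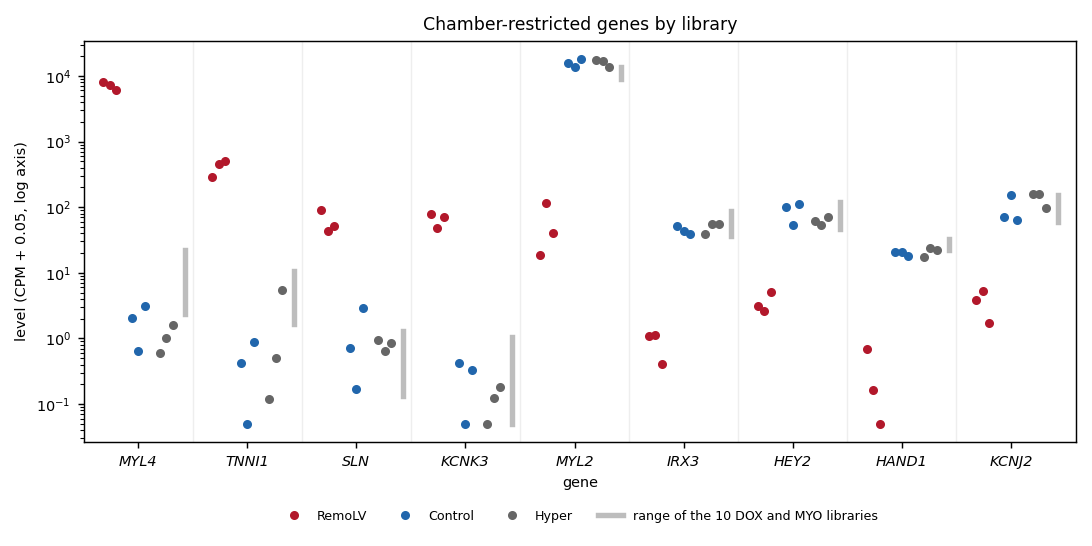
Level of 9 genes of chamber identity in CPM plus 0.05 on a log axis, 1 point per library for RemoLV, Control and Hyper, with a bar for the range of the 10 DOX and MYO libraries. For each gene the 3 RemoLV points lie on 1 side of all other libraries, above them from MYL4 to KCNK3 and below them from MYL2 to KCNJ2.

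The 12 largest changes in each direction among genes of at least 10 CPM on average also held genes outside the sarcomere. OSR1, a zinc-finger factor of embryonic mesenchyme, was at 97.5, 109 and 107 CPM against 0.970, 2.38 and 0.776 CPM. The groups were far apart (log2 fold change 6.2, SE 0.36, adjusted p = 1.94e-09, and 6.88 without Control 2). RABGAP1L, of a family that inactivates Rab GTPases, was at 698, 629 and 545 CPM against 44.0, 48.2 and 44.1 CPM, again without overlap (log2 fold change 3.78, SE 0.22, adjusted p = 1.94e-09). DKK3, a secreted protein of the Dickkopf family, CHGA, a protein of secretory granules that atrial myocytes hold, and SPOCK3, a secreted proteoglycan, had log2 fold changes of 5.98, 6.66 and 6.26, and CHGA 7.36 without Control 2. CIB4, ACSL6 and MCTP2 were in the same group of 12. CIB4 was at 40.3, 32.1 and 24.3 CPM in RemoLV, at least 158-fold higher than in Control, where it had no more than 3 counts. ACSL6, which activates long fatty acids, had a log2 fold change of 6.62, and MCTP2 had one of 5.94, or 6.75 without Control 2.

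Among the 12 that were lowest in RemoLV, PCP4, a small protein of calcium signalling, was at 4.22, 13.1 and 3.92 CPM against 489, 322 and 425 CPM in Control. Every RemoLV library was below all Control libraries (log2 fold change -5.83, SE 0.39, adjusted p = 8.04e-09, and -6.66 without RemoLV 2). ZBTB20, a zinc-finger repressor, was at 3.52, 3.10 and 3.65 CPM against 90.7, 84.8 and 80.7 CPM. The libraries of each set were nearly equal and the sets far apart (log2 fold change -4.64, SE 0.23, adjusted p = 9.25e-10). ZBTB20 was also at 1.13 to 2.88 CPM in all DOX and MYO libraries and at 87.2 to 108 CPM in Hyper, so that Control and Hyper were the high libraries. DAPL1 and CCDC112 had log2 fold changes of -6.73 and -5.82, DAPL1 moving to -7.82 without RemoLV 1 and -6.02 without RemoLV 2. GABRA4, a GABA-A receptor subunit, had one of -4.49, and KRT80, a keratin, one of -7.00, or -8.11 without RemoLV 3. LOC110255329, named only by its locus, had one of -6.72, or -7.32 without RemoLV 1. ADAMTS4, a protease that cleaves aggrecan, was at 2.32, 1.52 and 0.0891 CPM in RemoLV and at 92.4, 2.43 and 62.9 CPM in Control. Control 2 was close to the RemoLV libraries and Control 1 and 3 were not, and the log2 fold change of -5.24 (SE 1.5, adjusted p = 0.00927) moved to -4.56 without Control 1. Some of the smallest adjusted p-values in the lower direction were those of ZBTB20, IRX4 and EIF5B, an initiation factor of translation (log2 fold change -1.84, SE 0.099, adjusted p = 9.25e-10). Others were those of BDH1, an enzyme of ketone body oxidation (-3.19), SMYD2, a lysine methyltransferase (-2.72), and PDE8A, a cAMP phosphodiesterase (-1.90). ELAPOR2 was among those in the higher direction (2.32, SE 0.15, adjusted p = 5.37e-09).

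Of 88 potassium channel genes listed, 36 were tested, and 16 were higher and 5 lower with a median of 1.02. KCNJ2, the main channel of the inward rectifier current of the ventricle, was at 3.80, 5.30 and 1.69 CPM in RemoLV and 71.9, 151 and 63.0 CPM in Control. All RemoLV libraries were below all Control libraries (log2 fold change -4.69, SE 0.42, adjusted p = 2.08e-07). KCNK3, a two-pore channel of atrial myocytes, was at 78.2, 47.9 and 69.8 CPM against 0.373, 0 and 0.282 CPM, without overlap. Its log2 fold change of 8.26 (SE 0.62, adjusted p = 2.90e-08) moved to 8.87 without Control 1 and 7.60 without Control 2. KCNJ3 and KCNJ5, the subunits of the acetylcholine-gated channel of the atrium, were higher by 1.20 (SE 0.22, adjusted p = 2.90e-04) and 2.52 (SE 0.66, adjusted p = 0.00459). KCNIP2, the subunit of the transient outward current, fell from 284, 245 and 278 CPM in Control to 47.2, 29.1 and 28.2 CPM in RemoLV (log2 fold change -2.95, SE 0.32, adjusted p = 1.56e-06). KCNK6, another two-pore channel, rose by 4.42 (SE 0.43, adjusted p = 4.75e-07). The subunits of the slow delayed rectifier went opposite ways, KCNQ1 rising by 0.81 (SE 0.11, adjusted p = 1.29e-05) and KCNE1 having a log2 fold change of -1.84 (SE 0.25, adjusted p = 1.99e-05).

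Of 14 calcium channel genes tested, 8 were higher and 3 lower, with a median of 1.16. CACNA2D2, an auxiliary subunit, was at 9.15, 14.5 and 28.7 CPM in RemoLV and at most 0.238 CPM in Control (log2 fold change 6.53, SE 0.60, adjusted p = 2.91e-07), and CACNA1H, a T-type channel, was at 89.9, 48.3 and 72.7 CPM against 7.99, 12.9 and 5.99 CPM (log2 fold change 2.96, SE 0.46, adjusted p = 5.79e-05). No library of the groups overlapped for either gene. CACNB1 rose by 2.07 (SE 0.35, adjusted p = 1.31e-04), whereas CACNB2, the main cardiac ß subunit, fell by 1.10 (SE 0.20, adjusted p = 2.51e-04). Of 7 genes of the conduction system tested, 4 were higher and 0 lower. The pacemaker channel HCN4 was at 2.46, 1.13 and 0.891 CPM in RemoLV and had no count in any Control library, at least 7.30-fold higher (adjusted p = 6.60e-05). The connexin GJA5 of atria and conduction fibres rose by 2.41 (SE 0.31, adjusted p = 1.08e-05), whereas GJA1, the main ventricular connexin, had a log2 fold change of -0.18 (SE 0.23, adjusted p = 0.54), or 0.34 with library totals. Genes of calcium handling were 4 higher (2 without RemoLV 1, RemoLV 3, Control 1 or Control 3) and 8 lower of 16, among the lower TRDN, the anchor of the calcium release complex (-1.66, SE 0.20, adjusted p = 4.48e-06) and the plasma membrane pump ATP2B4 (-1.54, SE 0.17, adjusted p = 2.17e-06). The median of that list was -0.34 and turned to 0.21 with library totals.

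No collagen was lower in RemoLV at the FDR threshold, and most were higher. Of 42 collagen genes listed 30 were tested, and 19 were higher and 0 lower, with a median log2 fold change of 1.32 beside 0.02 for all genes, and 24 were higher and 0 lower with library totals. COL3A1, the fibrillar collagen of distensible tissue, was at 6941, 5980 and 5963 CPM in RemoLV and 1336, 1778 and 905 CPM in Control. The RemoLV libraries were all above all Control libraries (log2 fold change 2.23, SE 0.29, adjusted p = 9.84e-06). The chains of collagen I behaved alike, COL1A2 rising by 2.22 (SE 0.31, adjusted p = 2.35e-05) and COL1A1 by 1.94 (SE 0.33, adjusted p = 1.24e-04). COL27A1, a minor fibrillar collagen, was at 30.7, 39.0 and 24.6 CPM against 4.48, 6.95 and 3.53 CPM, without overlap (2.65, SE 0.25, adjusted p = 4.33e-07). The basement membrane chain COL4A5 and the beaded filament chain COL6A1 rose by 1.94 (SE 0.20, adjusted p = 8.06e-07) and 1.68 (SE 0.18, adjusted p = 1.93e-06). COL8A1, a collagen of short chains, was at 51.0, 40.4 and 30.4 CPM against 31.4, 23.5 and 35.9 CPM, so that the groups overlapped (0.43, SE 0.38, adjusted p = 0.366).

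**Figure D3:**
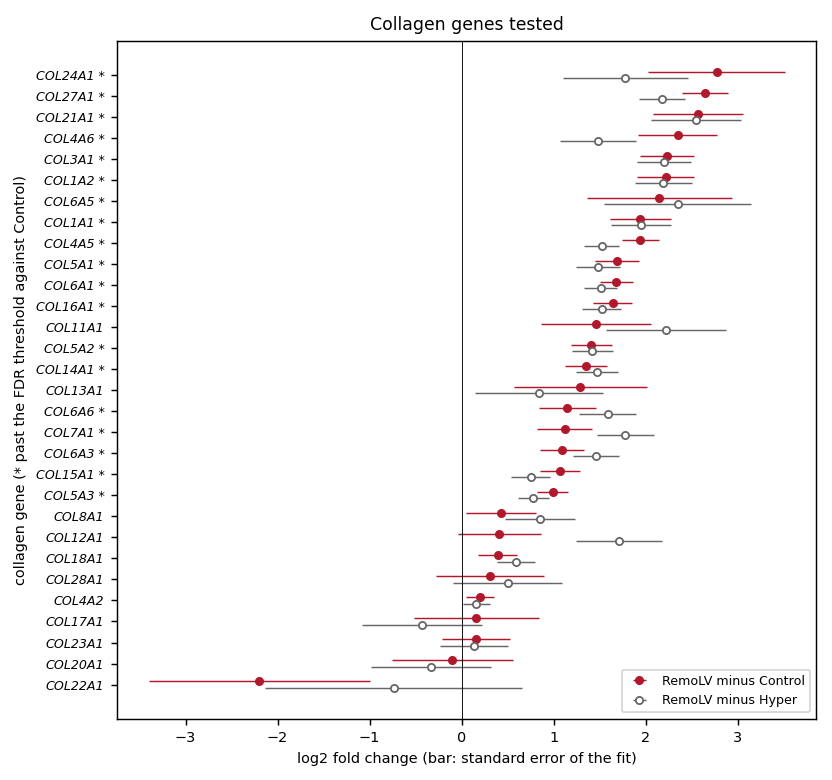
Fitted log2 fold change with its standard error for the 30 collagen genes tested, RemoLV minus Control (filled) and RemoLV minus Hyper (open). Both comparisons share the RemoLV libraries. The 19 genes marked with an asterisk, among them COL3A1 at 2.23, were higher than in Control at the FDR threshold.

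Markers of fibroblasts moved with the collagens, which are in part the same genes. The 12 fibroblast markers summed to 11604 to 13311 CPM in RemoLV and 2411 to 3818 CPM in Control, and 9 of 12 were higher and 0 lower with a median of 1.24. The collagens COL1A1, COL1A2 and COL3A1 are part of this sum, and no sum was taken without them. LUM, the proteoglycan lumican, did not pass the test (0.22, adjusted p = 0.521). FBLN1, a fibulin of the matrix, was at 270, 312 and 373 CPM against 125, 77.1 and 78.4 CPM, without overlap (1.77, SE 0.22, adjusted p = 7.48e-06). The defining receptor PDGFRA was at 27.7, 26.6 and 27.8 CPM against 22.6, 8.43 and 24.8 CPM (log2 fold change 0.56, SE 0.38, adjusted p = 0.237). Every RemoLV library was thus above all Control libraries, but Control 1 and 3 were close to them. Of 9 genes of activated fibroblasts 5 were higher and 1 lower, and the 5 became 3 without Control 1 and 2 without Control 3. LOX, which crosslinks collagen, rose by 1.65 (SE 0.26, adjusted p = 6.21e-05), and CTHRC1, a secreted protein of activated fibroblasts, was at 13.4, 5.47 and 6.77 CPM against 0.746, 0.831 and 0.846 CPM (3.38, SE 0.58, adjusted p = 1.49e-04). MEOX1, a factor that drives fibroblast activation, fell from 11.9, 14.8 and 12.5 CPM in Control to 5.07, 5.36 and 4.90 CPM in RemoLV (-1.35, SE 0.20, adjusted p = 3.96e-05). Periostin, POSTN, was at 55.9, 48.4 and 220.3 CPM against 39.3, 46.6 and 40.3 CPM, and its call (1.36, SE 0.46, adjusted p = 0.0206) rested on RemoLV 3, without which the log2 fold change was 0.31 with an adjusted p of 0.492. It was also lost without Control 1 or Control 3.

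Of 33 metallopeptidases and inhibitors tested, 16 were higher, 2 lower and 15 neither, with a median of 0.95. ADAMTS7, a secreted matrix protease, was at 270.0, 274 and 201 CPM in RemoLV and 29.6, 36.0 and 22.4 CPM in Control. All RemoLV libraries were above all Control libraries (3.08, SE 0.30, adjusted p = 4.83e-07). MMP2, gelatinase A, rose by 1.85 (SE 0.18, adjusted p = 4.66e-07), ADAMTS2, which trims procollagen, by 1.91 (SE 0.31, adjusted p = 7.87e-05), and the inhibitor TIMP4 by 1.98 (SE 0.29, adjusted p = 3.61e-05, or 2.59 without Control 2). ADAMTS9 was at 25.3, 23.6 and 16.4 CPM against 90.9, 34.9 and 98.4 CPM, lower in RemoLV (-1.77, SE 0.31, adjusted p = 1.98e-04) and with Control 2 close to RemoLV.

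TGF-ß is secreted in a latent form, stored in the matrix and, once freed, signals through paired receptors to SMAD factors. Of 19 of its ligands and activators tested, 5 (26.3%) were higher and 4 (21.1%) lower, close to the 23.1% and 24.0% of all genes. The median was 0.26, and with library totals 10 were higher and 2 lower. The ligands themselves did not pass the test: TGFB1 was at 36.8, 34.1 and 32.5 CPM in RemoLV and 43.6, 28.9 and 37.4 CPM in Control (-0.09, SE 0.15, adjusted p = 0.655, or 0.45 with library totals), TGFB2 had a log2 fold change of -0.57 (adjusted p = 0.101), and TGFB3 one of 0.64 (adjusted p = 0.2). The latent binding proteins, which store TGF-ß in the matrix, were all higher. LTBP1 was at 202, 172 and 210.2 CPM in RemoLV and 58.6, 72.0 and 51.7 CPM in Control, LTBP3 at 137, 143 and 169 CPM against 39.9, 35.0 and 25.0 CPM. No library overlapped for either, and the log2 fold changes were 1.68 (SE 0.16, adjusted p = 4.12e-07) and 2.17 (SE 0.21, adjusted p = 5.69e-07). LTBP2 and LTBP4 rose by 2.74 (SE 0.35, adjusted p = 9.75e-06) and 1.13 (SE 0.17, adjusted p = 4.09e-05). INHBB, an activin subunit, fell from 25.8, 20.8 and 34.6 CPM in Control to 2.39, 4.68 and 1.96 CPM in RemoLV (-3.13, SE 0.51, adjusted p = 9.15e-05).

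Of 11 receptors 4 (36.4%) were higher and 3 (27.3%) lower, beside 23.1% and 24.0% of all genes, or 7 and 2 with library totals. The type II receptor TGFBR2 was at 205, 195 and 196 CPM in RemoLV and 149, 145 and 149 CPM in Control, a small but even difference (0.42, SE 0.094, adjusted p = 0.00134). The co-receptor TGFBR3 and the type I receptor ACVR1 rose by 0.94 (SE 0.19, adjusted p = 6.54e-04) and 1.12 (SE 0.19, adjusted p = 1.17e-04), BMPR2 fell by 1.10 (SE 0.19, adjusted p = 1.90e-04), and TGFBR1 had a log2 fold change of 0.38 (adjusted p = 0.0765). Of 25 transducers and inhibitors, 7 (28.0%) were higher and 3 (12.0%) lower, or 14 and 1 with library totals, and 6 were lower without Control 2. The study names a set of TGF-ß inhibitors, LTBP1 among them, and reports them as downregulated across its treatment groups. Of this set, FMOD, fibromodulin, was at 30.4, 39.2 and 32.8 CPM in RemoLV and 13.9, 10.3 and 6.42 CPM in Control. It rose without overlap by 1.75 (SE 0.31, adjusted p = 2.21e-04), and the decoy receptor BAMBI by 1.39 (SE 0.27, adjusted p = 4.80e-04), DCN, the proteoglycan decorin, by 0.97 (SE 0.18, adjusted p = 3.14e-04), SMURF1, a ubiquitin ligase for SMADs, by 0.57 (SE 0.15, adjusted p = 0.00507) and SKP2, another ligase subunit, by 1.95 (SE 0.43, adjusted p = 0.00123, or 2.55 without Control 2). TGIF2, a co-repressor, was just inside the threshold (0.66, SE 0.27, adjusted p = 0.0494, and up to 0.226 with any library but RemoLV 1 left out), and TGIF1 (0.36, adjusted p = 0.0959) and RBX1 (-0.21, adjusted p = 0.102) were outside. SMAD3, the effector of TGF-ß, was at 48.5, 43.5 and 50.7 CPM in RemoLV and 122, 46.9 and 139 CPM in Control, so that Control 2 lay within the RemoLV range while Control 1 and 3 were high (-1.11, SE 0.24, adjusted p = 0.00126). With Control 2 as the only Control library its log2 fold change was 0.01.

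Genes of energy metabolism were lower in RemoLV with TMM factors. With library totals fewer of them passed the FDR threshold as lower, and the median of all genes moved as well, from 0.02 to 0.52. Of 75 nuclear genes of oxidative phosphorylation, 0 were higher and 70 lower with a median of -0.79, whereas with library totals 1 was higher and 32 lower with a median of -0.25, beside 0.52 for all genes. NDUFB1, a subunit of complex I, was at 90.0, 94.3 and 82.5 CPM in RemoLV and 311, 224 and 311 CPM in Control. The RemoLV libraries were all below all Control libraries (-1.66, SE 0.14, adjusted p = 7.97e-08). ATP5MK of the ATP synthase, NDUFS4 of complex I and COX7C of cytochrome oxidase had log2 fold changes of -1.47, -1.26 and -1.25, and all of them stayed below 0 with library totals. The 13 genes of the mitochondrial genome took 20.9%, 21.2% and 17.3% of all counts in RemoLV, and 27.9%, 20.7% and 28.8% in Control. Their share in Control 2 was inside the RemoLV range, and its part in the scaling was not tested.

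Of 28 genes of fatty acid oxidation 1 was higher (3 without Control 2) and 17 lower, with a median of -0.69, and with library totals 5 were higher and 10 lower with a median of -0.17. LPL, the lipase that frees fatty acids from lipoproteins, was at 459, 533 and 395 CPM in RemoLV and 3317, 1946 and 3836 CPM in Control. Every RemoLV library was below all Control libraries (-2.71, SE 0.24, adjusted p = 1.99e-07). FABP3, the heart fatty acid binding protein, fell by 1.96 (SE 0.22, adjusted p = 2.26e-06), the orphan receptor ESRRG by 1.78 (SE 0.18, adjusted p = 8.47e-07), and PPARGC1A, a co-activator of mitochondrial genes, by 1.33 (SE 0.26, adjusted p = 4.18e-04). Of 25 genes of glycolysis and lactate, 2 were higher and 13 lower, with a median of -0.66 (9 and 9 with library totals, median -0.14). SLC2A4, the insulin-responsive glucose transporter, was at 93.0, 73.9 and 68.6 CPM against 255, 242 and 239 CPM, without overlap (-1.64, SE 0.17, adjusted p = 9.50e-07). HK2, muscle hexokinase, was at 1.20, 1.47 and 1.25 CPM against 22.5, 10.3 and 22.5 CPM (-3.80, SE 0.47, adjusted p = 7.04e-06). The triose phosphate isomerase TPI1 and the phosphofructokinase PFKM fell by 1.34 (SE 0.15, adjusted p = 1.75e-06) and 1.22 (SE 0.14, adjusted p = 2.56e-06). Of 67 cytosolic ribosomal protein genes 1 was higher and 57 lower, with a median of -0.53, and with library totals 7 were higher and 14 lower with a median of -0.03.

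**Figure D4:**
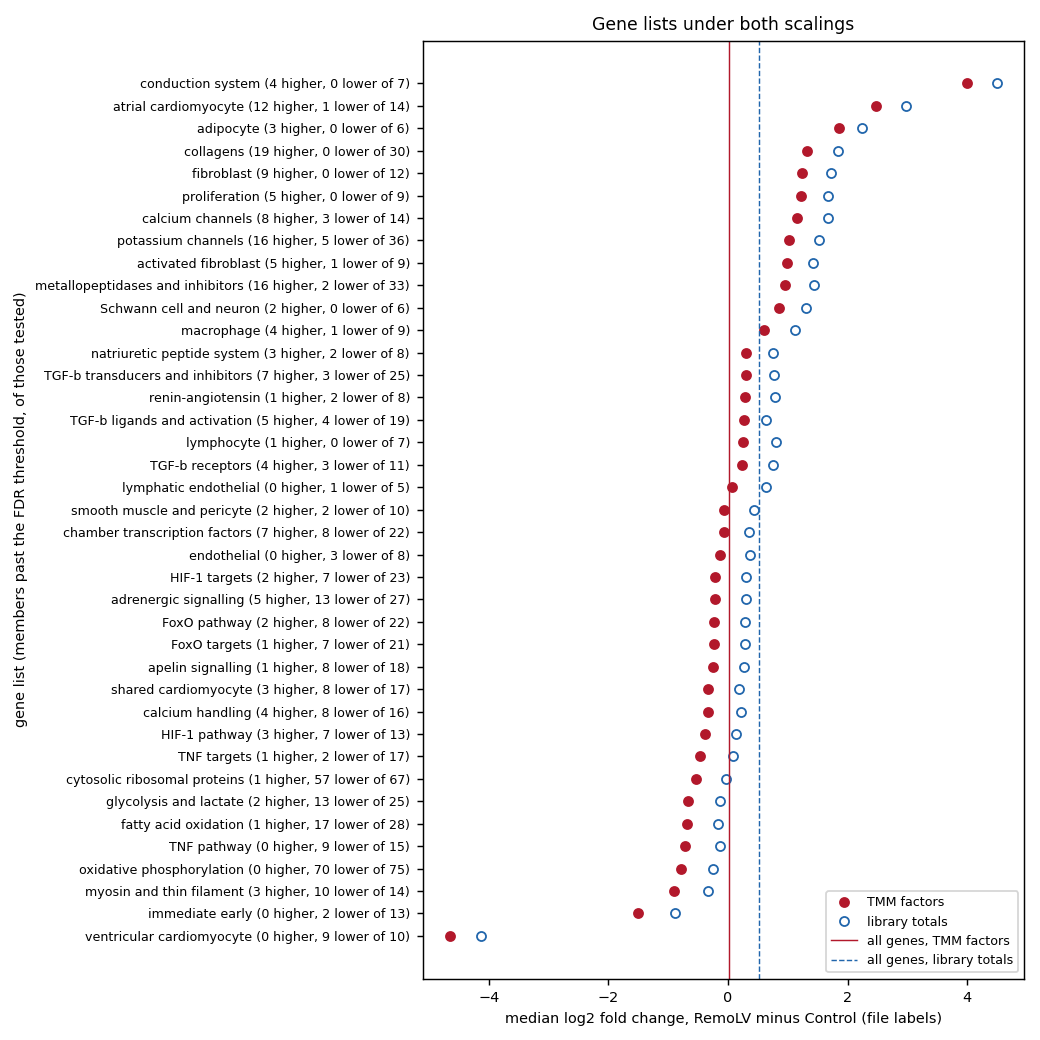
Median log2 fold change of the tested members of each list that had at least 5, RemoLV minus Control, with TMM factors (filled) and with library totals (open), and vertical lines at the medians of all genes (0.02 and 0.52). The counts at the left are members past the FDR threshold with TMM factors. Adrenergic, FoxO, HIF-1, apelin, calcium handling, shared cardiomyocyte, endothelial, smooth muscle, chamber factor and TNF target lists change sign between the scalings.

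Besides TGF-ß, whose lists had medians above 0 under both scalings, the study set out FoxO, HIF-1, TNF, adrenergic and apelin signalling for its fibrosis models. It reports FoxO as activated in RemoLV and Hyper, and TNF and adrenergic signalling as activated in DOX and MYO. HIF-1 and apelin genes are reported as upregulated in all models, HIF-1 most strongly in RemoLV. The lists of FoxO, HIF-1, TNF, adrenergic and apelin signalling had medians between -0.71 and -0.21 here. All but that of the TNF pathway changed sign with the scaling, which moved the median of all genes from 0.02 to 0.52. Of 22 FoxO pathway genes 2 were higher and 8 lower (median -0.23), or 9 and 4 with library totals (median 0.29). Of 21 FoxO targets 1 was higher and 7 lower (median -0.23), or 5 and 5 with library totals (median 0.28), and 4 were higher without Control 2. FOXO1 and FOXO3, the transcription factors, had log2 fold changes of 0.16 (adjusted p = 0.425) and -0.38 (adjusted p = 0.145). The receptor IGF1R was at 23.3, 31.3 and 25.1 CPM in RemoLV and 102, 68.3 and 128 CPM in Control, without overlap (-1.90, SE 0.24, adjusted p = 7.47e-06). AKT2, the kinase that inactivates FoxO factors, was at 152, 148 and 182 CPM against 107, 99.7 and 99.3 CPM and rose by 0.66 (SE 0.090, adjusted p = 1.83e-05). The targets GABARAPL1, an autophagy protein, and GADD45A, a stress sensor, had log2 fold changes of -2.18 (SE 0.30, adjusted p = 1.88e-05) and -2.37 (SE 0.35, adjusted p = 3.60e-05).

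Of 13 HIF-1 pathway genes 3 were higher and 7 lower (median -0.39), or 4 and 3 with library totals (median 0.13). Of 23 targets 2 were higher and 7 lower (median -0.21), or 9 and 3 with library totals (median 0.31). The 7 became 3 or 4 with any library but Control 2 left out, and 10 without Control 2. HIF1A, the oxygen-regulated subunit, was at 76.0, 67.4 and 72.6 CPM in RemoLV and 168, 98.9 and 185 CPM in Control, all RemoLV libraries being below all Control libraries (-1.06, SE 0.23, adjusted p = 0.00123). EPAS1, its paralog, and the prolyl hydroxylase EGLN3 fell by 1.01 (SE 0.17, adjusted p = 1.65e-04) and 1.52 (SE 0.22, adjusted p = 2.89e-05), and HIF3A, an inhibitory paralog, rose by 2.44 (SE 0.56, adjusted p = 0.00171, or 3.39 without Control 2). Of 15 TNF pathway genes 0 were higher and 9 lower with a median of -0.71, against 4 higher and 5 lower with library totals and 5 lower without Control 3. TNF itself was at 0.395 to 0.713 CPM in RemoLV and 0.178 to 0.282 CPM in Control (1.11, SE 0.94, adjusted p = 0.347). NFKB1, a subunit of NF-kB, was at 31.1, 30.1 and 26.3 CPM against 63.1, 46.4 and 65.4 CPM, without overlap (-1.0, SE 0.14, adjusted p = 2.27e-05).

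Adrenergic receptors act on the myocyte through G proteins and protein kinase A. Of 27 genes of this pathway 5 were higher and 13 lower (median -0.22, or 11 and 9 with a median of 0.30 with library totals), and 3 were higher without RemoLV 1. GNAS, the stimulatory G protein, was at 55.3, 71.3 and 67.0 CPM in RemoLV and 7.17, 9.74 and 5.99 CPM in Control. The groups did not overlap (3.07, SE 0.20, adjusted p = 5.37e-09). The ß1 receptor ADRB1 was at 37.4, 45.5 and 37.3 CPM against 25.2, 18.1 and 14.7 CPM and rose by 1.05 (SE 0.19, adjusted p = 2.36e-04). The α1A receptor ADRA1A had at most 3 counts in each RemoLV library and 9.41, 11.5 and 8.67 CPM in Control, at least 45.7-fold lower in RemoLV (adjusted p = 1.87e-05), and ADRA1B fell by 2.50 (SE 0.48, adjusted p = 4.14e-04). CAMK2D and PRKACB, kinases downstream of these receptors, fell by 1.05 (SE 0.14, adjusted p = 1.26e-05) and 1.32 (SE 0.19, adjusted p = 3.59e-05). Of the 18 apelin signalling genes 1 was higher and 8 lower (median -0.25, or 4 and 2 with a median of 0.26 with library totals), and the 8 became 3 without RemoLV 1 or RemoLV 2 and 4 without Control 1 or Control 3. The deacetylase HDAC4 was the higher one (1.08, SE 0.20, adjusted p = 2.73e-04), and the apelin receptor gene APLNR had no count in any of the 19 libraries.

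Of 8 renin-angiotensin genes 1 was higher and 2 lower, the angiotensin receptor AGTR1 being at 22.2, 23.2 and 21.3 CPM in RemoLV and 36.7, 30.8 and 44.5 CPM in Control (-0.75, SE 0.20, adjusted p = 0.00569, not past the threshold with library totals) and the converting enzyme ACE at 63.5, 52.2 and 44.1 CPM against 30.2, 35.2 and 28.4 CPM (0.77, SE 0.33, adjusted p = 0.0659). Neither overlapped between the groups. Of 8 natriuretic peptide genes 3 (37.5%) were higher (5 without Control 2) and 2 (25.0%) lower, beside 23.1% and 24.0% of all genes. NPPB, the brain natriuretic peptide released on wall stress, was at 19.6, 47.0 and 26.0 CPM against 2.99, 0.534 and 0.846 CPM, all RemoLV libraries being above all Control libraries (4.45, SE 1.0, adjusted p = 0.00172, or 5.48 without Control 1). NPR2, the receptor of C-type peptide, and FURIN, a protease that processes the peptide precursors, rose by 0.60 (SE 0.10, adjusted p = 1.61e-04) and 1.26 (SE 0.26, adjusted p = 6.29e-04), and the clearance receptor NPR3 fell by 1.71 (SE 0.41, adjusted p = 0.00225). Other genes that the study names did not pass the test in this contrast: the slow skeletal troponin TNNT1 had a log2 fold change of -1.0 (adjusted p = 0.104), the channel subunit KCNE3 one of 0.50 (adjusted p = 0.297) and the immediate early factor FOS one of -1.50 (SE 1.6, adjusted p = 0.462).

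Control 1 and Control 3 stood above all 17 other libraries for 1356 genes, among them 105 of the 301 lower DEGs (34.9%), and below them for 1438, among them 104 of the 559 higher DEGs (18.6%). Both together were 20.6% of all genes. All 3 Control libraries stood above the other 16 for 135 genes (0.996%). SOCS3, a feedback inhibitor of cytokine signalling, was at 6.05, 4.74 and 7.58 CPM in RemoLV and at 90.9, 2.38 and 88.4 CPM in Control. Control 2 was below all RemoLV libraries, and the log2 fold change of -3.31 (SE 1.0, adjusted p = 0.0135) was 1.34 with Control 2 as the only Control library and did not pass the test in DESeq2. PPARA, a receptor that drives fatty acid oxidation, was at 3.87, 4.29 and 3.57 CPM against 30.9, 4.04 and 51.9 CPM (-2.88, SE 0.70, adjusted p = 0.00257, and -2.15 without Control 3), with Control 2 inside the RemoLV range. The insulin receptor INSR was at 19.8, 20.0 and 18.4 CPM against 124, 38.8 and 158 CPM (-2.46, SE 0.41, adjusted p = 1.09e-04), and the adhesion molecule ICAM1 at 10.1, 8.29 and 10.2 CPM against 35.2, 11.6 and 32.1 CPM (-1.47, SE 0.32, adjusted p = 9.86e-04). For these genes all Control libraries were above all RemoLV libraries, with Control 2 nearest. The thrombospondin THBS1, which activates latent TGF-ß, was at 53.2, 84.2 and 62.2 CPM against 879, 144 and 892 CPM, and the cell cycle inhibitor CDKN1A at 5.49, 3.38 and 7.31 CPM against 34.9, 8.55 and 43.7 CPM. Both are shown for this pattern, seen in their values, and THBS1 (-3.26, SE 0.95, adjusted p = 0.00904) did not pass the test in DESeq2.

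Markers of blood and of the early stress response were also high in Control 1 and 3, though not only there. The 5 erythroid genes summed to 10.7 to 42.2 CPM in RemoLV and 36.7 to 355 CPM in Control. Their sum was 122 CPM in Hyper 3 and up to 199 CPM in DOX and MYO. HBB, ß-globin, was at 39.2, 18.7 and 9.27 CPM against 337, 35.1 and 325 CPM. Control 2 lay inside the RemoLV range (-3.37, SE 1.1, adjusted p = 0.0145, and -4.04 without RemoLV 1), and without RemoLV 2 or RemoLV 3 the gene no longer passed the test, with an adjusted p of up to 0.06. Of 13 immediate early genes 0 were higher and 2 lower (4 without Control 2) with a median of -1.50. They summed to 704, 343 and 621 CPM in Control 1, 2 and 3, 600 CPM in Hyper 1 and up to 8244 CPM in DOX and MYO. JUNB was at 7.11, 5.98 and 7.13 CPM against 77.9, 5.11 and 58.3 CPM (-2.80, SE 1.0, adjusted p = 0.0322), and lost its call with any library but Control 2 left out, with an adjusted p of up to 0.111. The part of blood or of the handling of these samples in the differences was not tested. With Control 2 as the only Control library, a choice made after seeing the data, 2931 genes passed the FDR threshold and 608 were DEGs, 424 higher and 184 lower. In that fit 10 of 14 atrial genes were higher, 8 of 10 ventricular genes lower and 17 of 36 collagens tested higher.

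**Figure D5:**
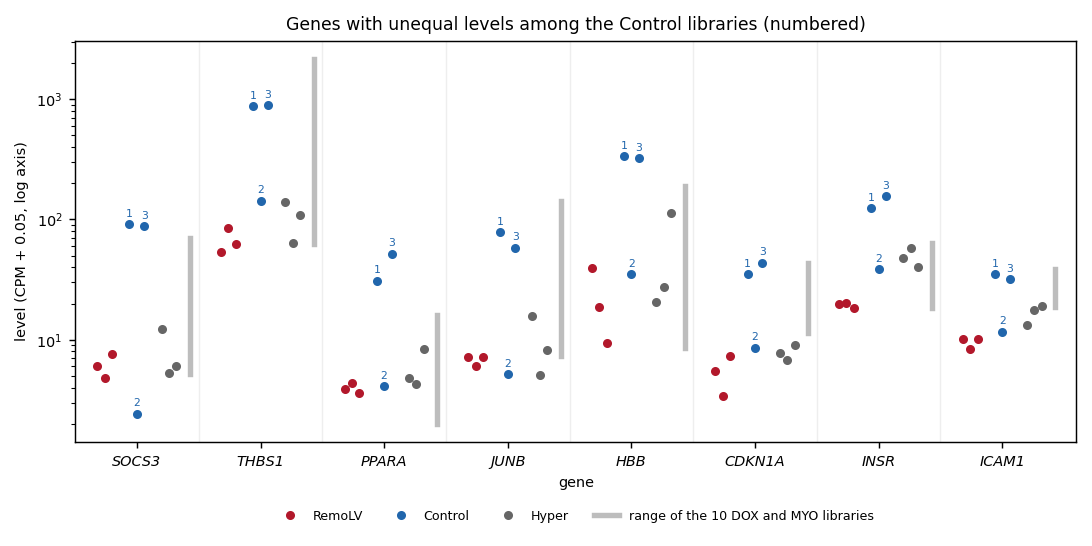
Level of 8 genes in CPM plus 0.05 on a log axis, 1 point per library for RemoLV, Control (numbered) and Hyper, with a bar for the range of the 10 DOX and MYO libraries. Control 1 and 3 are close to each other and above all RemoLV libraries, whereas Control 2 lies near RemoLV and Hyper, as for SOCS3 at 2.38 CPM against 90.9 and 88.4 CPM.

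The RemoLV libraries were also set beside Hyper, sampled after the same 6 months and from the anterior wall, in a comparison that shares the RemoLV libraries. Here 2300 genes (17.0%) were higher and 2518 (18.6%) lower in RemoLV at the FDR threshold. There were 668 DEGs, 475 higher (3.51%) and 193 lower (1.42%). The balance depended on the scaling here too: with library totals, 4123 genes were higher and 962 lower at the FDR threshold. The median log2 fold change of all genes was 0.01 with TMM factors and 0.36 with library totals. MYL2 had a log2 fold change of -8.10 against Hyper beside -8.09 against Control, GNAS 3.08 beside 3.07, and COL3A1 2.20 beside 2.23. Genes of the immediate early and erythroid lists, 1 of 13 and 0 of 4 lower against Hyper, and HIF1A (-0.13, adjusted p = 0.698), SMAD3 (-0.09, adjusted p = 0.819) and PPARA (-0.56, adjusted p = 0.572) did not pass the test there or did so in few members. Collagens were 22 of 30 higher, and genes of oxidative phosphorylation 71 of 75 lower, both counted on the TMM scale only.

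Over all 19 libraries, the 3 RemoLV libraries lay above all 16 others for 1109 genes (8.18%), which included 371 of the 559 higher DEGs (66.4%), and below them for 1081 (7.98%), which included 159 of the 301 lower DEGs (52.8%). By list, 12 of 14 atrial genes and 9 of 12 fibroblast genes were above, and 8 of 10 ventricular genes and 31 of 75 genes of oxidative phosphorylation below. A second group of genes placed RemoLV with DOX and MYO: 525 genes (3.87%) were higher and 770 (5.68%) lower in all 13 libraries of these groups than in the 6 of Control and Hyper. These held 10 of 30 collagens among the higher, and 52 of 67 ribosomal protein genes and 35 of 75 genes of oxidative phosphorylation among the lower. Such groupings rest on the TMM scale and were not tested with library totals. TMM factors were 0.972 to 1.18 in RemoLV, DOX and MYO, and 0.696 to 0.965 in Control and Hyper. With library totals, the ribosomal list had a median of -0.03 in RemoLV minus Control. COL3A1 was at 2483 to 3417 CPM in DOX and MYO, between Control and RemoLV.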

How the data were processed

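Poly(A) RNA of left ventricular samples was sequenced in pairs of reads from strand-specific libraries. The authors aligned the reads with STAR to Sscrofa11.1 and deposited counts per Ensembl gene made with HTSeq 0.11.1. The table that the authors deposited holds log2-like transformed expression, used only for the naming of libraries, beside their own fold changes and adjusted p-values, which were not used. Of 25879 gene IDs, 14856 got a symbol from the gene name table and 1190 from the authors' table.

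The counts were fitted with edgeR 4.0.16 in R 4.3.3 (limma 3.58.1), with filterByExpr, TMM factors and the quasi-likelihood test, in 1 model of all 19 libraries in 5 groups, so that all groups share 1 estimate of the spread. Adjusted p-values are Benjamini-Hochberg values over all 13552 genes tested, and p-values are two-sided. Levels are CPM on TMM-scaled library sizes. Where a group had at most 3 counts in each library, a fold is a bound against 3 counts per library. Such bounds do not cover the spread between pigs. Standard errors (SE) are those of the quasi-likelihood fit. Each library is 1 pig. The p-values rest on a spread between pigs that all groups share, not on that of the RemoLV and Control pigs alone. Fitted on only the libraries of these 2 groups, 5098 genes passed the FDR threshold and 801 were DEGs. On simulated data of 13274 genes for RemoLV minus Control, the test recovered 52% of 100 genes changed by 1 and 85.7% of 98 genes changed by 2 on the log2 scale. The simulation changed only these genes, in both directions, from means shared by all groups. In the data 47.2% of genes differed and the Control libraries were unlike each other, so these rates need not hold there.

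Named genes are the 12 largest changes in each direction without overlap, the 6 smallest adjusted p-values in each direction (both at a mean of at least 10 CPM and with a symbol), up to 4 members of each list with the smallest adjusted p, members that define a cell type or head a pathway, and genes that the study names. Other members, such as ACTC1, DES, TNNT2, KCNQ1, KCNE1, ADAMTS9, COL1A1, COL8A1, INHBB, CDKN1A and THBS1, were added after their values were seen. The members and the 42 lists were chosen with earlier results of these data known. Of the 106 DEGs with no symbol none is named, and some genes and sequences that the rule gives are not reported here. Alternatives were DESeq2 1.42.0, other scalings and filters, fewer libraries, a replicate block and the naming of the table. Tables were handled in Python 3.11.15 with numpy 2.4.6 and pandas 2.3.3.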

Additional observations from a re-analysis of the deposited data

How the results depend on the processing

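The atrial, ventricular, fibroblast and collagen lists kept the direction of most of their calls in every alternative run (17 to 24 collagens higher and at most 1 lower). With library totals in place of TMM factors, 6178 genes were higher and 1038 lower at the FDR threshold, DEGs were 1003 higher and 166 lower, and 10 genes of fatty acid oxidation and 32 of oxidative phosphorylation were lower. With Control 2 as the only Control library, chosen after seeing the data and assuming that the lone library varies like the other groups, 2931 genes passed the FDR threshold, 1344 higher and 1587 lower, 184 DEGs were lower, and 10 genes of fatty acid oxidation and 40 of oxidative phosphorylation were lower. Leaving out 1 library at a time gave 4929 to 7277 genes at the FDR threshold and 775 to 1261 DEGs, the highest of both without Control 2, and the higher DEGs were 519 without Control 3 and 888 without Control 2. The cause was not tested.

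The numbers of the replicates showed no pairing of the pigs. Deviations of log2 CPM from the group means correlated at 0.046, -0.002 and 0.016 between same-numbered RemoLV and Control libraries. With a replicate block 6104 genes passed the FDR threshold and 857 were DEGs. DESeq2 gave 6571 genes and 867 DEGs. Without a filter on low counts there were 1200 DEGs, and with a mean of at least 10 counts 670. Named as in the table, 6402 genes and 859 DEGs were called, all in the opposite direction by name.

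Directions of single genes changed with library totals for FOXO3 (0.17), GJA1 (0.34), RBX1 (0.30) and TGFB1 (0.45). With Control 2 alone they changed for FOS (1.01), JUNB (0.39), KCNE3 (-0.31), SMAD3 (0.01), SOCS3 (1.34), TGFB1 (0.25) and TNNT1 (0.22). TGFB1 was between -0.24 and 0.05 with 1 library left out, the highest without Control 1. Depth leaves a bound in place of a fold for genes with at most 3 counts in each library of a group.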

Other observations

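Other cell types were described by marker lists that the report did not use, chosen like the rest with earlier results of these data known. Of 9 macrophage markers 4 were higher (2 without Control 3) and 1 lower in RemoLV, with a median log2 fold change of 0.60, and their summed level was 322 to 327 CPM in RemoLV and 245 to 331 CPM in Control. Of 8 endothelial markers 0 were higher and 3 lower, with a median of -0.14, which was 0.37 with library totals. Adipocyte markers were 3 of 6 higher and 0 lower with a median of 1.85, against 5 of 6 with a median of 3.07 without Control 2 and 1 of 6 with a median of 0.82 with Control 2 as the only Control library. Markers of proliferation were 5 of 9 higher and 0 lower with a median of 1.22, but 1 was higher without RemoLV 1, Control 1 or Control 3 and 0 with Control 2 alone. Their summed level was 60.9 CPM in RemoLV 1, 31.2 and 19.7 CPM in the other RemoLV libraries and 16.5 to 17.7 CPM in Control. Of 7 lymphocyte markers 1 was higher and 0 lower, and of 6 markers of Schwann cells and neurons 2 were higher and 0 lower.

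The 17 cardiomyocyte markers that atria and ventricles share summed to 49421 to 49879 CPM in RemoLV and 46968 to 62791 CPM in Control, so that the RemoLV libraries lay within the Control range, and 3 were higher and 8 lower with a median of -0.33, or 0.19 with library totals.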
